A study of Mus musculus with 24 samples.

Results

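BMS641, an agonist described as specific for the retinoic acid receptor RARβ, was given at 0.1 µM to P19 cells, a mouse embryonal carcinoma line, and its 5 arrays were set against 4 arrays of cells given ethanol (EtOH). These 9 arrays, of 24 in the series, were taken by their labels alone and were fitted without the arrays of the other agents. The BMS641 arrays stand for 2, 6, 24, 48 and 72 h of treatment, with 1 array per time, while the EtOH arrays carry no time label. BMS961, described as specific for RARγ, was given at the same dose of 0.1 µM for the same 5 times and served as a second comparison. BMS753, described as specific for RARα, and all-trans retinoic acid (ATRA) were given at 1 µM, so their values are only set beside those of BMS641. All cells grew as a monolayer on gelatine-coated plastic, in medium with fetal and delipidated calf serum, and the labels name no genetic change. The labels do not say whether the arrays of a group came from separate cultures, so p-values measure the spread between these arrays, which may be technical. Because EtOH has no times, an effect of time in culture and an effect of BMS641 cannot be told apart.

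Retinoic acid receptors (RARα, RARβ and RARγ) bind DNA as partners of the retinoid X receptors (RXR) at response elements, which are usually direct repeats of a short half-site. Without ligand they hold corepressors at their target genes, and an agonist exchanges these for coactivators. Rarb, which encodes RARβ, is itself a classical target, as are Cyp26a1, which breaks retinoic acid down, and the anterior Hox genes. Embryonal carcinoma cells resemble pluripotent cells of the early embryo, and P19 cells leave that state when they are given retinoic acid.

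Messenger levels were read on Affymetrix Mouse Gene 1.0 ST arrays and are log2 intensities, so a difference of 1 is a 2-fold change. The text uses 19938 genes. The standard deviation over genes of the difference between a pair of BMS641 arrays was 0.102 to 0.132 log2 units (10 pairs). It was 0.109 to 0.151 between a BMS641 and an EtOH array (20 pairs), and 0.0941 to 0.143 between EtOH arrays (6 pairs). The arrays of the 2 groups were thus about as far from each other as arrays within a group. The pluripotency factor Pou5f1 (Oct4) stood at 12.86 to 12.89 on the BMS641 arrays and at 12.85 to 12.99 on the EtOH arrays. Sox2, its partner, stood at 11.40 to 11.64 with BMS641 and at 11.50 to 11.56 with EtOH. Zfp42 (Rex1), another marker of pluripotent cells, was among the dim genes, at 4.77 to 5.08 with BMS641 and 4.77 to 4.89 with EtOH.

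Averaged over all 5 times, a small set of genes was higher with BMS641, each by less than 2-fold. Nr0b1, the orphan nuclear receptor Dax1 of the mouse pluripotency network, was 1.72-fold higher than with EtOH. Plk3, a stress-responsive polo-like kinase, was 1.64-fold higher. Cltb, a clathrin light chain, was 1.77-fold higher, and Dhrs3, which reduces retinaldehyde back to retinol, was 1.33-fold higher. Limma called 51 of the 19938 genes at a Benjamini-Hochberg adjusted p under 0.05 (0.256%). With BMS641, 48 were higher (0.241%) and 3 lower (0.0150%), and 0 of them reached 2-fold. At an unadjusted p under 0.05 the fit held 1808 genes, and the median change over all genes was 0.01. The called changes ran from 0.17 to 0.89 in size on the log2 scale, with a median of 0.31. The count depended on single arrays. It was 21, 19 and 10 without EtOH array 1, 3 or 4, and 10, 28 and 32 without the 24, 48 or 72 h array of BMS641, but 89 without the 2 h array. With all 24 arrays in the fit, whose spread then holds the 1 µM agents, limma called 0 genes over all times and 0 late (675 and 625 at an unadjusted p under 0.05).

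Plk3 lay at 9.68, 9.32, 9.57, 9.44 and 9.48 with BMS641 at 2, 6, 24, 48 and 72 h, against 8.79, 8.89, 8.72 and 8.74 on the EtOH arrays. Every BMS641 array lay above every EtOH array, and the 2 h array was the highest. Its log2 change was 0.71 ± 0.06 (SE; limma adjusted p = 1.55e-05, n = 5 and 4), the smallest adjusted p of the comparison. Dhrs3 lay at 9.18, 9.22, 9.22, 9.11 and 9.07 with BMS641, against 8.71, 8.71, 8.76 and 8.81 with EtOH. The groups again did not overlap, and the 2 h array already stood near the later ones. The change was 0.41 ± 0.04 (limma adjusted p = 0.000199). Nr0b1 lay at 11.09, 11.62, 11.75, 11.58 and 11.57 with BMS641, against 10.70, 10.66, 10.80 and 10.81 with EtOH. Here the 2 h array was the lowest of the BMS641 arrays but still above the EtOH range, and the change was 0.78 ± 0.09 (limma adjusted p = 0.000554). Cltb lay at 7.81, 8.11, 8.57, 8.41 and 8.39 with BMS641, against 7.58, 7.31, 7.26 and 7.59 with EtOH. It changed by 0.82 ± 0.12 (limma adjusted p = 0.00429).

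**Figure D1:**
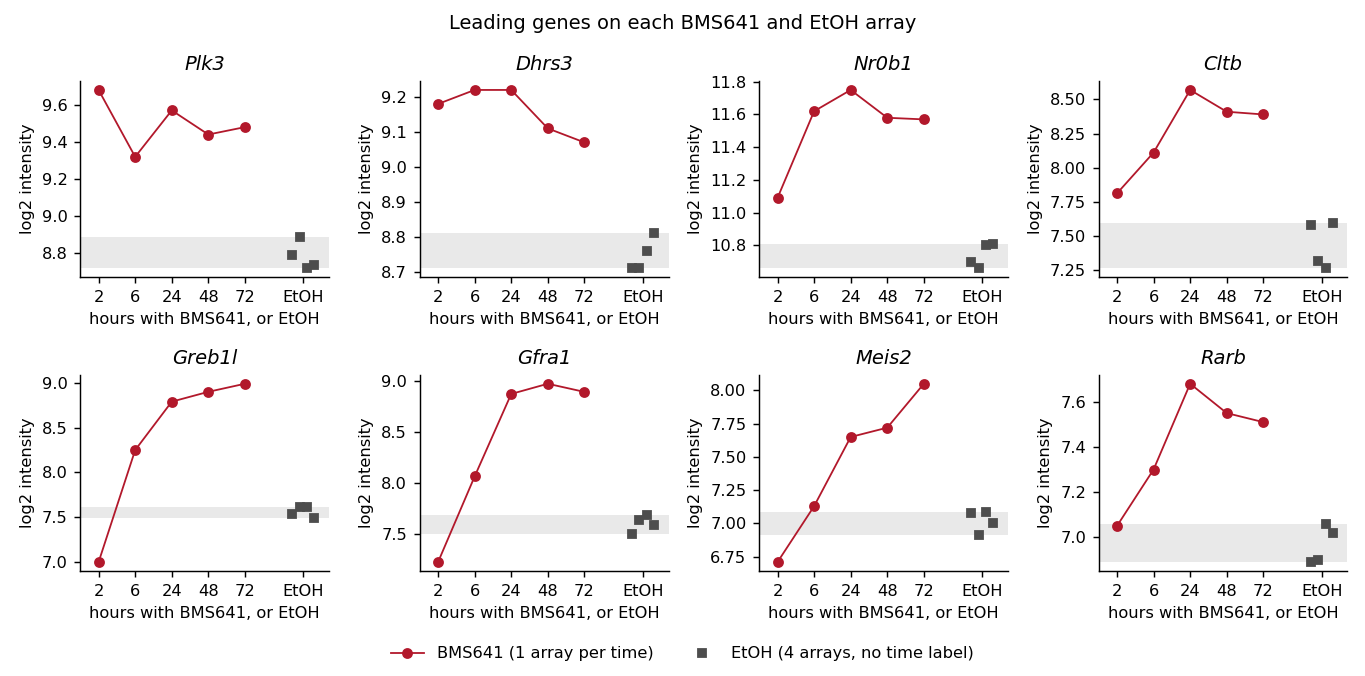
Log2 intensity of 8 genes on each array: red points joined by a line are the BMS641 arrays by hours of treatment, grey squares the 4 EtOH arrays, and the grey band their range. Plk3, Dhrs3, Nr0b1 and Cltb lie above the EtOH range at all 5 times, while Greb1l, Gfra1 and Meis2 start below it at 2 h and lie above it from 24 h on.

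The other rises with the largest changes and no overlap between groups were spread over many functions. Actn3, an α-actinin of fast muscle fibres, rose by 0.67 ± 0.12 and lay at 9.25 on the 2 h array and at 9.71 to 10.20 later, against 9.03 to 9.17 with EtOH. Alpl, the tissue-nonspecific alkaline phosphatase whose activity marks undifferentiated carcinoma and embryonic stem cells, rose by 0.44 ± 0.08. It lay at 10.72 at 2 h and at 11.09 to 11.34 later, against 10.64 to 10.72 with EtOH, so at 2 h it was level with the highest EtOH array to the digits shown. The remaining rises were in Zmym3, a zinc finger protein (0.42 ± 0.07), Prkcq, a protein kinase C (0.36 ± 0.07), and Steap3, an endosomal iron reductase (0.36 ± 0.05). Cdc42ep3, an effector of the GTPase Cdc42 (0.33 ± 0.06), Kcnip3, a calcium-binding protein that also represses transcription (0.33 ± 0.05), and Fam171b (0.33 ± 0.05) completed the named genes, among which olfactory receptors are not counted. Their adjusted p-values ran up to 0.0479, that of Prkcq. The largest change of all, 0.89 ± 0.12, was in 2610528J11Rik, a transcript without a gene name that was singled out after its values were seen. Plk3, Dhrs3, Steap3 and Kcnip3 kept their call without any single array, whereas Actn3, Alpl and Prkcq lost it without any 1 of the EtOH arrays. Nr0b1 and Cltb also kept their call without any single array, but both lost it under robust variance moderation. Cltb lost it too with the BMS961 arrays added to the fit. Zmym3, Cdc42ep3 and Fam171b lost their call without EtOH array 4 or the 24 h array of BMS641. Cdc42ep3 and Fam171b also lost it with the BMS961 arrays added, and Fam171b under robust variance moderation.

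Of the 3 genes called lower, 2 have names. Pxdc1 lay at 8.68, 8.42, 8.27, 8.27 and 8.49 with BMS641, against 9.03, 8.74, 8.88 and 8.87 with EtOH, and fell by 0.45 ± 0.07 on the log2 scale (limma adjusted p = 0.0140). Spry3, of the Sprouty family that restrains receptor tyrosine kinase signalling, lay at 9.48 to 9.73 with BMS641, against 9.82 to 9.89 with EtOH, and fell by 0.27 ± 0.04. The groups did not overlap for either gene. Pxdc1 lost its call without EtOH array 1, 3 or 4 or the 24 h array, and Spry3 without EtOH array 1 or 4 or the 24 h array. The uncalled genes with the smallest unadjusted p among those whose 5 BMS641 arrays all lay lower were Cx3cl1, Abcb1a, Rdh10, Edn1, Tox3 and Slc6a6. Their log2 differences were −0.12 to −0.33, with adjusted p-values of 0.0642 to 0.104. Over all genes, 346 (1.74%) had their 5 BMS641 arrays above the 4 EtOH arrays and 259 (1.30%) had them below (3.03% in all), and 47 of the 51 called genes were among these.

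**Figure D2:**
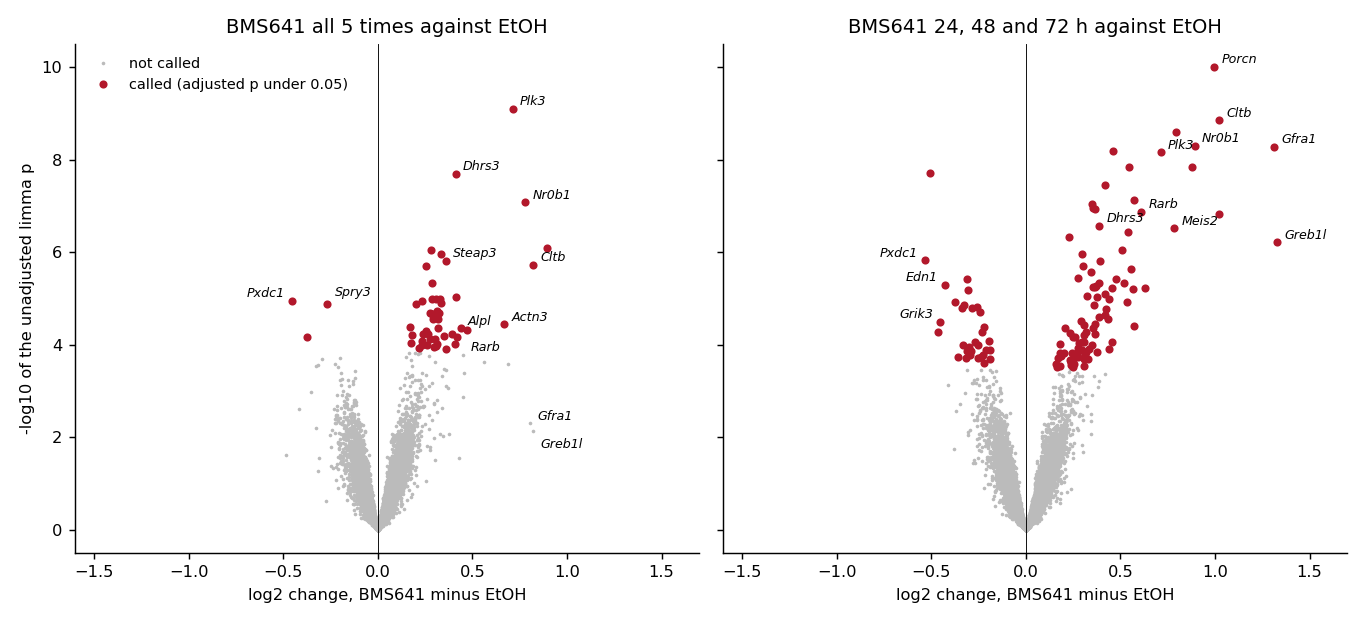
Log2 change of each gene (x axis) against the −log10 of its unadjusted limma p (y axis), for the mean of the 5 BMS641 arrays (left) and of the 3 arrays at 24 to 72 h (right), each minus the mean of the 4 EtOH arrays. Red points are the 51 and the 128 called genes, most of them higher with BMS641.

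From 24 h on, more genes passed the test, and some by a larger change. Greb1l, a retinoid-responsive gene that kidney development requires, was 2.51-fold higher, and Gfra1, the co-receptor for the neurotrophic factor GDNF, was 2.48-fold higher. Porcn, the enzyme that attaches the lipid Wnt proteins need for secretion, was 2.00-fold higher, and Cltb was 2.03-fold higher. In this comparison of the 24, 48 and 72 h arrays with EtOH (n = 3 and 4), 128 genes passed in limma (0.642%). Of these, 95 were higher (0.476%) and 33 lower (0.166%), and Greb1l, Gfra1, Cltb and the unnamed 2610528J11Rik passed 2-fold. The unadjusted p was under 0.05 for 1841 genes. Of the 51 genes called over all times, 44 were also called here (86.3% of the 51 and 34.4% of the 128), but both comparisons use these arrays. The count was 81 and 67 without EtOH array 3 or 4, and 60 and 79 without the 48 or 72 h array.

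Greb1l lay at 8.79, 8.90 and 8.99 at 24, 48 and 72 h of BMS641, against 7.54, 7.61, 7.62 and 7.49 with EtOH. At 6 h it was already at 8.25, but at 2 h it was at 7.00, below all EtOH arrays. Against EtOH the lone 2 h array was called lower (−0.56, limma adjusted p = 0.0377), and the 2 h array of BMS961 was also low, at 7.20. Its late change was 1.33 ± 0.17 (limma adjusted p = 0.000551), a call lost under robust moderation. Gfra1 lay at 8.87, 8.97 and 8.89 at the late times, at 8.06 at 6 h and at 7.22 at 2 h, against 7.50, 7.63, 7.68 and 7.58 with EtOH. The course was that of Greb1l, from below the EtOH range to well above it, and the late change was 1.31 ± 0.12 (limma adjusted p = 1.96e-05). Neither gene was called over all times, where the 2 h array widened the spread (changes of 0.82 ± 0.27 and 0.80 ± 0.25, adjusted p = 0.414 and 0.354).

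Porcn lay at 9.40, 9.28 and 9.11 late, at 8.36 and 8.63 early, against 8.21, 8.37, 8.19 and 8.29 with EtOH. Its late change of 1.00 ± 0.07 had the smallest adjusted p of the comparison (limma, 1.96e-06), while the 2 h array lay within the EtOH range. Nr0b1 was 0.89 ± 0.08 higher late and Actn3 0.88 ± 0.09. Meis2, a TALE homeobox gene that acts beside Hox proteins, lay at 7.65, 7.72 and 8.05 late, at 6.71 at 2 h and 7.13 at 6 h, against 7.08, 6.91, 7.09 and 7.00 with EtOH. It too stood below the EtOH range at 2 h, and its late change was 0.78 ± 0.10 (limma adjusted p = 0.000320). Chd7, a chromatin remodeller of neural crest development, rose by 0.35, and all 30 of its probe sets lay higher, by 0.24 to 0.43. It was singled out after its values were seen, because no other called gene had as many probe sets.

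The largest late falls were about as small as the all-times ones. Pxdc1 fell by 0.53 ± 0.07 and Ifitm3, an interferon-induced membrane protein, by 0.46 ± 0.09. Grik3, a kainate receptor subunit, lay at 8.55, 8.23 and 8.06 at 24, 48 and 72 h, against 8.76, 8.80, 8.74 and 8.63 with EtOH, and fell by 0.45 ± 0.08. Edn1, which encodes endothelin 1, lay at 6.87, 6.66 and 6.83 late, against 7.16 to 7.26 with EtOH, and fell by 0.43 ± 0.07. Tek, the angiopoietin receptor, fell by 0.37 ± 0.06. The limma adjusted p-values of these 5 genes ran from 0.00120 to 0.0156. Without the 48 h array Ifitm3, Grik3 and Tek lost their call, as did Grik3 without the 72 h array and Ifitm3 without EtOH array 4 or the 24 h array.

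The genes that limma called late reached the far side of the EtOH range at different times. Of the 95 called higher, 46 (48.4%) already lay above all EtOH arrays at 2 h and 72 (75.8%) at 6 h, while 11 lay below all EtOH arrays at 2 h and 7 at 6 h. Over all genes tested, 25.6% lay above the EtOH range at 2 h and 19.9% at 6 h. Of the 33 called lower, 15 (45.5%) lay below the EtOH range at 2 h and 19 (57.6%) at 6 h, where 15.3% and 22.2% of all genes did. The genes were chosen by their 24 to 72 h values and the EtOH arrays are the same, so these shares are a description with no test.

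**Figure D3:**
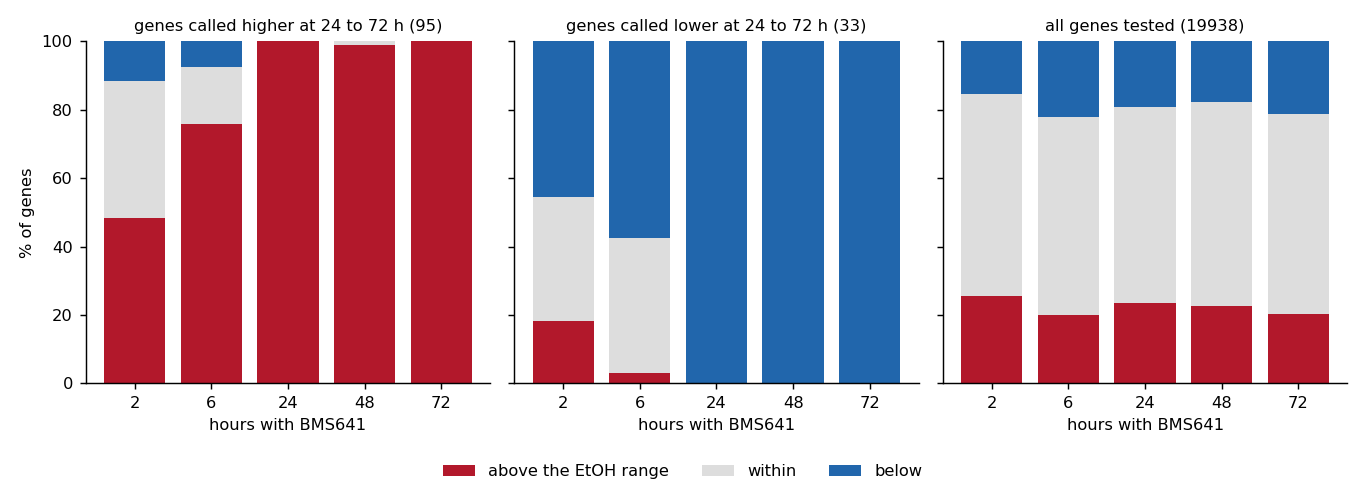
Share of genes (y axis, %) whose value on the BMS641 array of each time (x axis, hours) lay above (red), within (grey) or below (blue) the range of the 4 EtOH arrays, for the 95 genes called higher late, the 33 called lower late and all 19938 genes. Of the genes called higher late, 48.4% were above the range at 2 h and 75.8% at 6 h.

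At 2 and 6 h (n = 2 against 4), the genes that had changed were few. Limma called 10 (0.0502%), 9 higher (0.0451%) and 1 lower (0.00502%), with an unadjusted p under 0.05 for 1230 genes. Plk3 rose by 0.72 ± 0.08, Nr0b1 by 0.61 ± 0.09, Dhrs3 by 0.45 ± 0.05, Gca, the calcium-binding protein grancalcin, by 0.40 ± 0.06, and Kcnip3 by 0.34 ± 0.06. Their limma adjusted p-values ran from 0.000772 to 0.0442. Gca lay at 10.41 and 10.60 at 2 and 6 h and at 10.25, 10.12 and 9.99 later, against 10.08 to 10.15 with EtOH, so it was high early and back in or below the EtOH range by 48 and 72 h. Id2, an inhibitor of basic helix-loop-helix factors, was the only gene called lower, at 10.32 and 10.33 early, against 10.51 to 10.64 with EtOH (fell by 0.25 ± 0.04). The other called genes were Dnmt3a, a de novo DNA methyltransferase (0.34 ± 0.06), Mcl1, an antiapoptotic Bcl2 relative (0.28 ± 0.05), Zfr, an RNA-binding zinc finger protein (0.26 ± 0.04), and the microRNA locus Mir196a-1 (0.53). Plk3 and Dhrs3 held their early call in all fits that left out 1 array, while Nr0b1, Gca, Kcnip3 and Id2 lost it without EtOH array 1, 3 or 4 or the 6 h array. Kcnip3 also lost it without EtOH array 2 or the 48 h array, and Id2 without the 2 or 48 h array. The count of 10 was 3, 3 and 2 without EtOH array 1, 3 or 4, 6 without the 48 h array, and 24, 24 and 19 without the 2, 24 or 72 h array.

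Within BMS641, the slope of the log2 value on the log2 of hours was called for 113 genes (0.567%), 57 upward (0.286%) and 56 downward (0.281%), and the unadjusted p was under 0.05 for 1422. The steepest rises per doubling of time were in Greb1l (0.36 ± 0.03), Gfra1 (0.34 ± 0.03) and Meis2 (0.24 ± 0.02). The steepest falls were in Enpp4, a membrane ectoenzyme (fell by 0.19 ± 0.02), Grik3 (fell by 0.17 ± 0.02) and Bcl11a, a zinc finger repressor (fell by 0.14 ± 0.02). Their limma adjusted p-values ran up to 0.00588. Enpp4 lay at 8.36, 8.24, 7.92, 7.52 and 7.39 from 2 to 72 h, and the EtOH arrays lay between, at 7.82, 7.72, 7.90 and 7.98. Bcl11a likewise began above the EtOH range, at 8.92 and 8.90, and ended below it, at 8.41 and 8.15, against 8.54 to 8.78 with EtOH. For such genes the mean over all times shows little: the all-times difference was 0.03 for Enpp4 and −0.05 for Bcl11a, with limma adjusted p = 0.964 and 0.932. Without the 2, 48 or 72 h array the count of slopes was 72, 61 and 39. Bcl11a lost its call without the 72 h array, while Greb1l, Gfra1, Meis2, Enpp4 and Grik3 kept theirs without any single array. Fitted in the same way, the BMS961 arrays gave slopes of 0.40 for Greb1l, 0.46 for Gfra1 and 0.415 for Meis2. They gave −0.20 for Enpp4 and −0.13 for Grik3, so the courses of these genes were not particular to BMS641. The slopes of the 2 agonists were not tested against each other.

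Among the receptors, limma called 1 of 6 over all times and 2 of 6 late, where 0.256% and 0.642% of all genes were called. Rarb lay at 7.05, 7.30, 7.68, 7.55 and 7.51 with BMS641, against 6.89, 6.90, 7.06 and 7.02 with EtOH. The 2 h array lay within the EtOH range and the other 4 above it. The late change was 0.61 ± 0.07 (limma adjusted p = 0.000167), whereas the all-times difference of 0.45 ± 0.09 was not called (adjusted p = 0.0585). Rxrg, which encodes RXRγ, lay at 9.38 to 9.69 with BMS641 and at 9.05 to 9.39 with EtOH. It was called over all times (0.31 ± 0.06, limma adjusted p = 0.0428), but its groups overlapped and the call was lost without most single arrays. Rara, Rarg, Rxra and Rxrb had all-times differences of −0.01 to 0.02 and were not called.

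Of the 7 genes that clear retinoic acid or its precursors, Dhrs3 alone was called against EtOH. Cyp26a1, the main retinoic acid hydroxylase, lay at 6.12, 6.26, 6.61, 6.64 and 6.87 with BMS641, against 6.20, 6.05, 6.50 and 6.41 with EtOH. Only the 3 late arrays were above the EtOH range. Its late difference of 0.42 ± 0.10 was not called (limma adjusted p = 0.0623), but its slope over time was (0.14 ± 0.03 per doubling, adjusted p = 0.0188). Of the 16 measured genes of retinoid synthesis, uptake and binding, Rdh10, which makes retinaldehyde from retinol, was called and only late. It lay at 8.79, 8.78 and 8.84 at 24 to 72 h, against 9.05 to 9.13 with EtOH (fell by 0.29 ± 0.05, limma adjusted p = 0.00612), and the call was lost without the 48 h array. Of 14 measured coactivators and corepressors, limma called 0 in any of the 5 comparisons, and 0 had an unadjusted p under 0.05. Of all 19938 genes, 0.0502% to 0.642% were called in these comparisons, and 1230 to 1841 had an unadjusted p under 0.05.

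The promoters of Rarb and Cyp26a1 hold a direct repeat of the retinoic acid response type, and both are printed because these genes also separated BMS641 from BMS961 the most. The last 120 bases before each start are given from RefSeq (GRCm38.p6), 5′ to 3′ on the gene's strand, with the half-sites in capitals.
Rarb, chr14:16575477-16575596, minus strand: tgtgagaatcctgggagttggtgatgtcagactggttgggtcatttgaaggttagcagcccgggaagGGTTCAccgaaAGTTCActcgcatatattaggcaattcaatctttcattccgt
Cyp26a1, chr19:37697688-37697807, plus strand: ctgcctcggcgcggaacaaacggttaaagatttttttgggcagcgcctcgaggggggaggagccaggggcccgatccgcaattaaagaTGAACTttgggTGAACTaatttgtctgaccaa
In Rarb the repeat lies 53 to 37 bases before the start, and in Cyp26a1 32 to 16 bases before it, on the opposite strand. The search took as half-sites AGGTCA or its variant AGTTCA, and likewise GGGTCA or its variant GGTTCA. It looked for any 2 of these in the same direction with 1, 2 or 5 bases between them, on both strands, from 250 bases before to 50 after each start. Such a repeat with 5 bases between was found for 11 of 15563 genes with a promoter in the table (0.0707%), and any of the 3 spacings for 62 (0.398%).

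Of the 51 genes called over all times, 43 had a promoter in the table, and 1 of them (2.33%) held a repeat with 1 of the 3 spacings. It was Slc45a3, a solute carrier, with GGGTCAgtAGGTCA at chr1:131970486-131970499, and it rose by 0.30 ± 0.05 (limma adjusted p = 0.0178). It lay at 7.43 to 7.56 with BMS641, against 7.14 to 7.32 with EtOH. Of the late-called genes, 3 of 104 (2.88%) held one: Rarb, Slc45a3 and Tinagl1, a secreted matrix protein, with GGGTCActGGGTCA at chr4:130175216-130175229. Tinagl1 rose by 0.31 ± 0.07 late (limma adjusted p = 0.0452). A match describes the letters of the window, and response elements farther away were not searched, so the absence of these letters near Plk3, Dhrs3 or Nr0b1 says only that.

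Of 32 measured genes on a list of known retinoid-responsive genes, limma called 0 over all times (10 at an unadjusted p under 0.05) and 7 late, all higher. Over all genes, 0.256% were called over all times (1808 of 19938 at an unadjusted p under 0.05) and 0.642% late. The late-called ones were Greb1l, Gfra1, Meis2, Csn3, Wnt8a, Gbx2 and Pmp22. Csn3, a milk casein gene, lay at 5.53, 5.64 and 5.61 late, against 4.84 to 5.09 with EtOH, and rose by 0.63 ± 0.10 (limma adjusted p = 0.00299). Wnt8a, a Wnt ligand of the primitive streak, rose by 0.46 ± 0.09, Gbx2, a homeobox gene of the border between midbrain and hindbrain, by 0.31 ± 0.07, and Pmp22, a myelin protein, by 0.23 ± 0.04. Wnt8a lost its call without EtOH array 1, 3 or 4 or the 48 or 72 h array, Gbx2 without EtOH array 2, 3 or 4 or the 24 or 72 h array, and Pmp22 without EtOH array 4 or the 24 or 48 h array. Late, 26 of the 32 differences were above 0, with a median of 0.09, beside 10646 of the 19938 genes and a median of 0.01. The list was chosen with earlier results of these data known, so its direction is not independent evidence. Skap2, a signalling adaptor, was called on its slope (0.12 ± 0.02 per doubling) but not late.

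None of the 14 measured Hox genes of paralogue groups 1 to 5 or of the 23 of groups 6 to 13 was called in any of the 5 comparisons. Of all genes, 0.0502% to 0.642% were called in these comparisons. At an unadjusted p under 0.05, 1 and 4 of these Hox genes passed over all times, and 2 and 2 late. Of all 19938 genes, 1808 had such a p over all times and 1841 late. Hoxb1, an early target of retinoic acid, lay at 7.11, 6.97, 7.07, 7.22 and 7.43 with BMS641, against 6.92, 7.01, 7.03 and 7.16 with EtOH. The late arrays were on the whole higher, but the groups overlapped (late difference 0.21 ± 0.08, limma adjusted p = 0.408). Hoxb13, of the posterior group, was called on the lone 2 h and 6 h arrays (0.64 and 0.63, limma adjusted p = 0.0431 and 0.0354). It lay at 7.19, 7.18, 7.18, 6.58 and 6.50 with BMS641, against 6.44 to 6.65 with EtOH, so it was high up to 24 h and inside the EtOH range by 48 h.

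Of 39 measured pluripotency genes, 2 rose over all times, 3 rose late and 0 fell in either, where 0.241% and 0.476% of all genes were called higher. Dnmt3a lay at 11.16 to 11.43 with BMS641, against 10.97 to 11.05 with EtOH, and rose by 0.28 ± 0.05. Eras, a Ras-like gene of embryonic stem cells, lay at 8.39 to 8.65, against 8.10 to 8.29, and rose by 0.31 ± 0.05. Nanog, a core pluripotency factor, rose only late, by 0.42 ± 0.07 (limma adjusted p = 0.00367), at 9.12, 9.25 and 9.47, against 8.82 to 8.91 with EtOH. At 2 h it was also above the EtOH range, at 9.01, but at 6 h it was within it, at 8.82. Over all times, Eras lost its call without EtOH array 2, 3 or 4 or the 24 h array, and Dnmt3a without EtOH array 1, 3 or 4 or the 24 h array. Eras and Nanog kept their late calls without any single array, and Dnmt3a lost its late call without any 1 of the EtOH arrays. Nodal, a TGF-β ligand of the early embryo, and Lefty1, its inhibitor, were called on the lone 2 h array (0.62 and 0.63, limma adjusted p = 0.0423 and 0.00523). Lefty1 lay at 11.03, 10.48, 10.62, 10.76 and 10.87 with BMS641, against 10.30 to 10.48 with EtOH, so the 2 h array was the highest. The list's median difference was −0.005 over all times and −0.002 late, with 18 and 19 of the 39 differences above 0. All 5 BMS641 arrays lay above the EtOH arrays for 2 of these genes and below for 3 (1.74% and 1.30% of all genes). At an unadjusted p under 0.05, 10 passed over all times and 13 late, beside 1808 and 1841 of the 19938 genes. By slope, Nanog was called upward and Cdh1 downward (0.09 and −0.05 per doubling of time).

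Of all 19938 genes, 0.256% were called over all times and 0.642% late. Of the lists for other cell types, the endoderm list had 1 of 28 genes called over all times and late, the rest 0 over all times. That gene was Gata6, a regulator of primitive endoderm, which lay at 7.72 to 7.95 with BMS641, against 7.40 to 7.63 with EtOH, and rose by 0.32 ± 0.06 (limma adjusted p = 0.0216). The call was lost without EtOH array 1, 2 or 4 or the 24 or 48 h array of BMS641. Late, 1 of 37 neuron genes, the guidance receptor Robo1, fell by 0.25, a call lost without any 1 of the EtOH arrays. The lists for neural progenitors (36 measured genes), mesoderm and heart (28), neural crest (15), fibroblasts and smooth muscle (17), trophoblast (10) and glia (11) had 0 genes called over all times or late. Their counts at an unadjusted p under 0.05 were 5, 1, 0, 2, 0 and 0 over all times and 5, 0, 2, 1, 1 and 0 late. The endoderm and neuron lists had 2 and 5 such genes over all times and 2 and 8 late. Of all 19938 genes, 1808 had such a p over all times and 1841 late. By slope over time, Gap43, a growth cone protein, Lhx2, a forebrain homeobox gene, and Fst, the activin antagonist follistatin, were called upward (0.15, 0.13 and 0.18 per doubling). Nes, the neural progenitor filament nestin, Robo1 and Krt18, a keratin of simple epithelia, were called downward (fell by 0.12, 0.07 and 0.09).

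Plk3 was the single gene called among 23 of the p53, apoptosis and DNA damage list, both over all times and late. Of all 19938 genes, 0.256% were called over all times and 0.642% late. Of 16 orphan nuclear receptors, Nr0b1 was called over all times, and Nr0b1 and Nr6a1, the germ cell nuclear factor that represses Oct4 in mouse embryos, were called late (Nr6a1 by 0.16). Of 26 immediate early genes, late calls were Ccn2, a matricellular protein, which rose by 0.23, and Jund, an AP-1 subunit, which fell by 0.24. Ccn2 lost its call without any 1 of the EtOH arrays, Jund without EtOH array 1, 2 or 4, and Nr6a1 without EtOH array 1, 3 or 4, and each also without the 48 or 72 h array. The lists for the cell cycle (34 measured genes), ATF4 and amino acid stress (25), glycolysis and hypoxia (27), cholesterol and fatty acid synthesis (27), replication-dependent histones (16) and ribosomal proteins (22) had 0 genes called over all times or late. Their counts at an unadjusted p under 0.05 were 2, 2, 0, 3, 2 and 1 over all times and 2, 4, 0, 2, 2 and 0 late. The p53, orphan receptor and immediate early lists had 6, 4 and 10 such genes over all times and 5, 6 and 8 late. Of all 19938 genes, 1808 had such a p over all times and 1841 late.

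**Figure D4:**
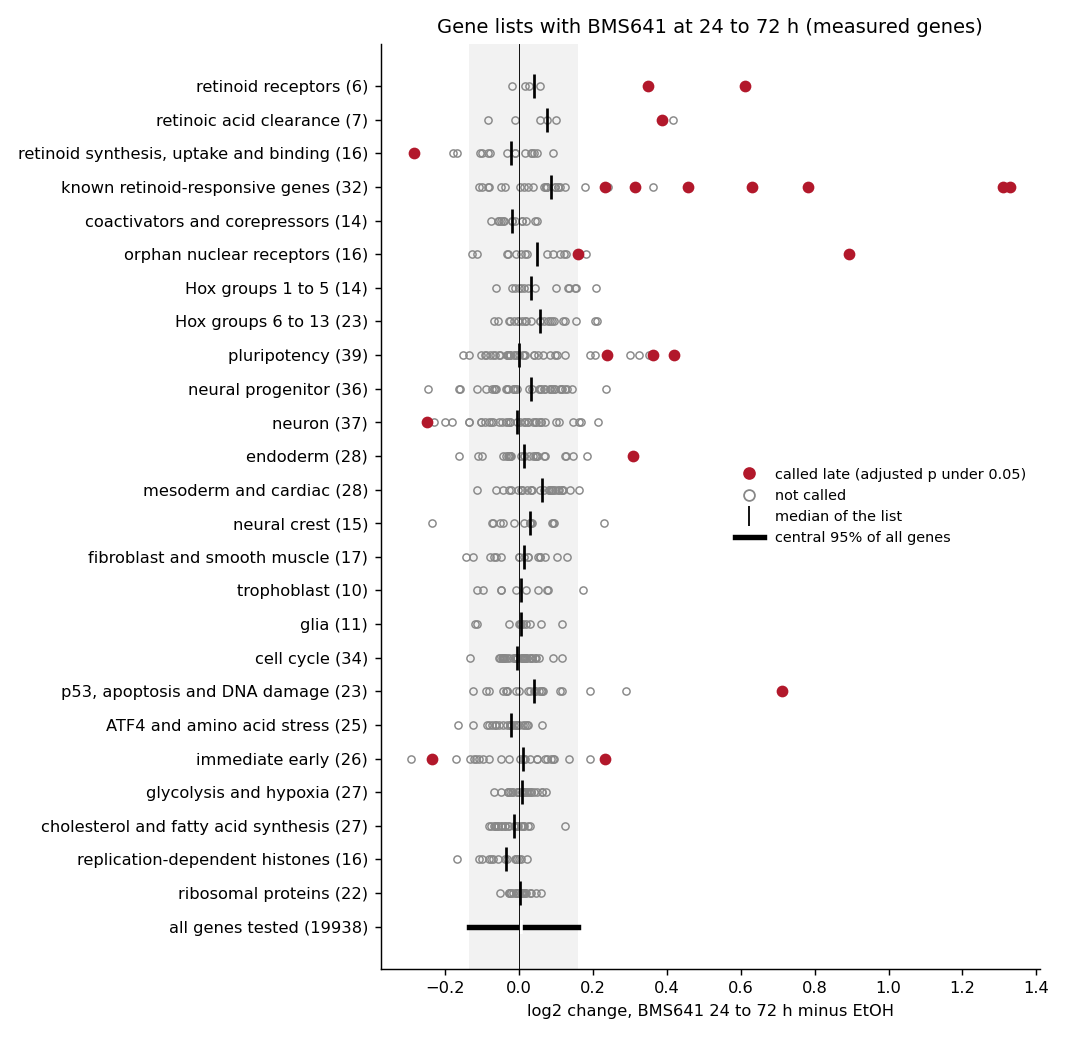
Log2 difference between BMS641 at 24 to 72 h and EtOH (x axis) for each measured gene of 25 lists (rows, with their number of measured genes). Filled red points are called genes, open grey points are not called, black ticks are list medians, and the bottom row and grey band give the central 95% of all 19938 genes; most list genes lie inside the band, and the points farthest right are Greb1l and Gfra1.

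At the same dose and times, BMS641 and BMS961 differed most in Rarb and Cyp26a1, which were higher with BMS961. Rarb was at 7.05, 7.30, 7.68, 7.55 and 7.51 with BMS641, against 7.72, 8.33, 8.58, 8.56 and 8.39 with BMS961 at 2, 6, 24, 48 and 72 h. BMS961 was higher at all 5 times, and the time-matched difference was −0.90 ± 0.05 (SE; limma adjusted p = 1.87e-07, n = 5 pairs of times). Cyp26a1 was at 6.12, 6.26, 6.61, 6.64 and 6.87 with BMS641, against 6.48, 6.79, 7.38, 7.69 and 7.76 with BMS961, a difference of −0.72 ± 0.08 (adjusted p = 0.000638, limma). Dhrs3 differed by −0.41 ± 0.05, Gfra1 by −0.42 ± 0.07 and Plekhb1, a membrane-associated pleckstrin homology protein, by −0.41 ± 0.06. In all, limma called 29 genes (0.145%), 5 higher (0.0251%) and 24 lower (0.120%) with BMS641, in a fit with time as a block that used no EtOH array. The unadjusted p was under 0.05 for 1455 genes. The 5 differences had 1 sign for 8.10% of all genes, below 0 for 4.39% and above 0 for 3.71%.

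Nr0b1 was the one gene of the retinoid, nuclear receptor and responsive lists that was called higher with BMS641 than with BMS961. It was at 11.09, 11.62, 11.75, 11.58 and 11.57 with BMS641, against 10.97, 11.33, 11.52, 11.33 and 11.17 with BMS961, and higher at all 5 times. The difference was 0.26 ± 0.03 (limma adjusted p = 0.00102). H1f2, a linker histone gene, was at 8.53, 8.40, 8.39, 8.39 and 8.31 with BMS641, against 8.07, 7.79, 7.76, 7.82 and 7.75 with BMS961 (0.56 ± 0.04, limma adjusted p = 2.33e-06). The EtOH arrays had H1f2 at 8.11 to 8.52, so the BMS641 arrays overlapped them and the BMS961 arrays lay below them. The other genes called higher with BMS641 were H3c15, a histone H3 gene with near-identical copies that the array may not separate (0.39 ± 0.07), the chemokine Ccl17 (0.18 ± 0.03) and S100a10, an annexin partner (0.16 ± 0.03).

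Rises over the EtOH mean were also seen with BMS961. The BMS961 mean minus the EtOH mean was 0.87 for Plk3, 1.13 for Cltb, 0.82 for Dhrs3 and 0.62 for Alpl. For Gfra1 and Greb1l it was 1.22 and 1.04. For Nr0b1 and Actn3 it was 0.52 and 0.51, below the BMS641 changes of 0.78 and 0.67. These BMS961 differences from EtOH were not tested. Cltb and Alpl were called lower with BMS641 than with BMS961 (−0.30 and −0.18, limma adjusted p = 0.025 and 0.0012). Several of the genes that BMS641 raised against EtOH were not called between the agonists. The difference for Plk3 was −0.15 ± 0.04 (95% interval −0.24 to −0.07, limma adjusted p = 0.271), for Greb1l −0.22 ± 0.05 (−0.32 to −0.11, adjusted p = 0.148), for Meis2 −0.52 ± 0.12 (−0.78 to −0.27, adjusted p = 0.148) and for Porcn −0.05 ± 0.03 (−0.13 to 0.02, adjusted p = 0.774). A missed threshold does not show that the agonists act alike on these genes. The count of 29 was 210 or 209 without the 2 h array of BMS641 or BMS961, and 10 to 15 without any other array. Rarb, Cyp26a1, Dhrs3, Nr0b1 and H1f2 held their call in each of these fits, while H3c15, Ccl17, S100a10, Gfra1 and Plekhb1 lost it in 6. With time as a block, leaving out 1 array takes its time out of the comparison for both agonists. The 10 fits are therefore 5 checks, 1 per time, each made in 2 ways. Without time as a block, H1f2 and Dhrs3 stayed called, and Rarb (adjusted p = 0.0598, limma), Cyp26a1 and Nr0b1 (0.997 each) did not.

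**Figure D5:**
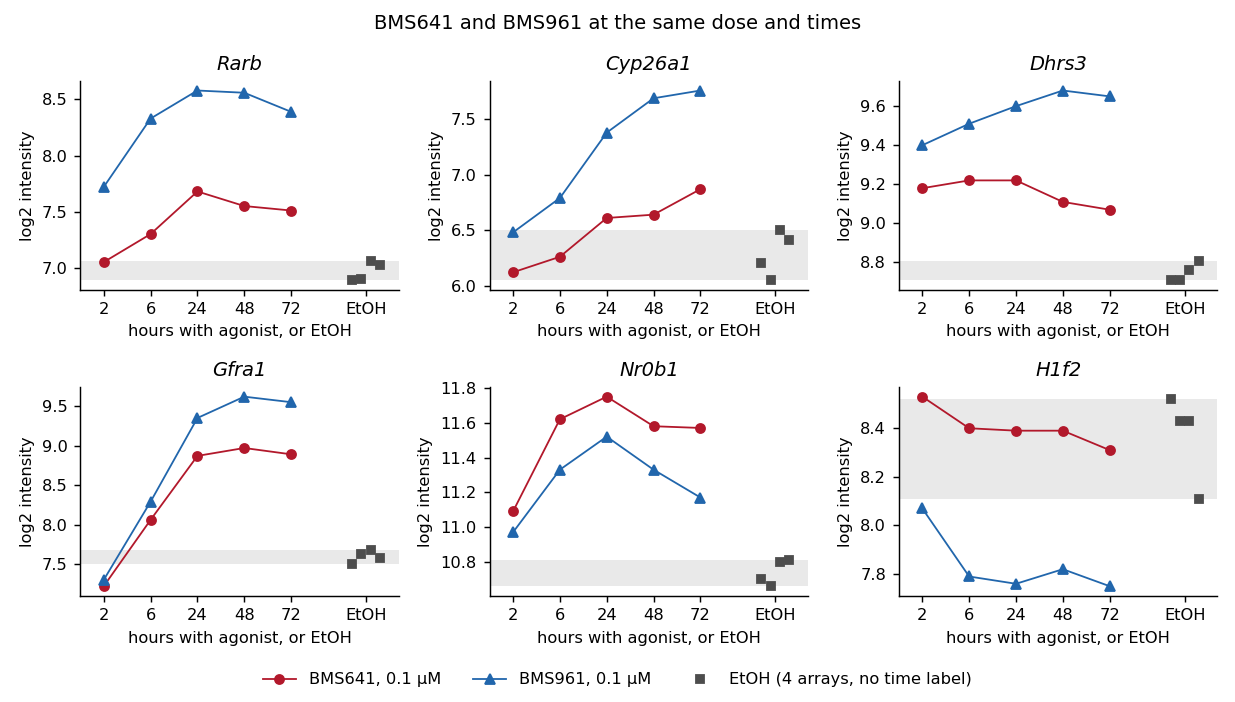
Log2 intensity (y axis) of 6 genes by hours of treatment (x axis) with BMS641 (red circles) and BMS961 (blue triangles), both at 0.1 µM, 1 array per point, beside the 4 EtOH arrays (grey squares, with their range as a band). BMS641 lies below BMS961 at every time in Rarb, Cyp26a1, Dhrs3 and Gfra1, and above it in Nr0b1 and H1f2.

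The agents at 1 µM differ from BMS641 in dose as well as in target, so their values are only listed. Rarb was at 7.05 to 7.68 with BMS641 at 0.1 µM, at 9.53 to 11.24 with BMS753 at 1 µM and at 10.08 to 11.70 with ATRA at 1 µM. At 2, 6, 24, 48 and 72 h, Greb1l was at 7.00, 8.25, 8.79, 8.90 and 8.99 with BMS641. It was at 7.63, 9.99, 10.78, 11.34 and 10.42 with BMS753, and at 8.14, 10.67, 11.50, 10.09 and 8.58 with ATRA. The values of Greb1l with ATRA peaked at 24 h, and those with BMS753 at 48 h. Nr0b1 was at 11.09, 11.62, 11.75, 11.58 and 11.57 with BMS641. It was at 11.67, 12.31, 12.05, 8.85 and 6.36 with BMS753, and at 11.98, 12.78, 11.45, 6.77 and 6.05 with ATRA, against 10.66 to 10.81 with EtOH. With both 1 µM agents Nr0b1 thus lay above the EtOH range up to 24 h and below it at 48 and 72 h, while with BMS641 it lay above that range throughout. Meis2 was at 6.71 to 8.05 with BMS641, at 7.21 to 12.38 with BMS753 and at 7.52 to 12.82 with ATRA, in each case lowest at 2 h and highest at 72 h.

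In single arrays, a call at an adjusted p under 0.05 together with a change of at least 2-fold was made for 1 gene at 2 h (0.00502%), 0 at 6 h (0.00%), 7 at 24 h (0.0351%), 4 at 48 h (0.0201%) and 3 at 72 h (0.0150%). Each lone array is assumed there to vary as the EtOH arrays do. Without the fold, the counts were 12 (0.0602%), 24 (0.120%), 47 (0.236%), 40 (0.201%) and 62 (0.311%) in order of time. Among genes with names, the 3 largest rises were in Gfra1, Greb1l and Porcn at 24 h and again at 48 h, and in Greb1l, Gfra1 and Meis2 at 72 h.

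The gene called at 2 h was Mir302a, a locus of the Mir302 cluster, whose microRNAs are abundant in pluripotent cells. Loci of small RNAs were passed over by the rule for named genes, and this cluster is described because it was seen in the values. Its probe sets read the locus and not the mature microRNA. The mature sequences are shown with their seed (bases 2 to 8) in capitals, as RefSeq (GRCm38.p6) gives them for the cluster on chromosome 3.
mmu-miR-302b-3p: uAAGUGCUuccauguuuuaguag
mmu-miR-302d-3p: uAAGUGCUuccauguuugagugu
mmu-miR-302c-3p: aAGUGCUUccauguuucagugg
mmu-miR-302a-5p: aCUUAAACgugguuguacuugc
The 3p arms of Mir302b and Mir302d share 1 seed, and that of Mir302c is the same run shifted by a base. For Mir302a the reference used here held only the 5p arm, so its 3p arm and seed are not shown. Its printed 5p seed is not to be compared with the 3p seeds of the others. Mir302a lay at 6.26, 6.66, 6.87, 7.30 and 7.62 with BMS641, against 7.85, 7.27, 7.36 and 7.22 with EtOH. The early arrays lay below the EtOH range and the values climbed back into it by 48 h (2 h difference −1.17, limma adjusted p = 0.0407). Mir302c and Mir302d differed by −0.84 and −0.77 at 2 h and were called too, while Mir302b (−0.74, adjusted p = 0.633) was not. The slopes of Mir302a, Mir302c and Mir302d were called, at 0.24 ± 0.04, 0.19 ± 0.03 and 0.13 ± 0.03 per doubling of time. BMS961 had Mir302a at 6.38 at 2 h and 7.44 at 72 h, and the difference between the agonists was not called.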

How the data were processed

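The values are the deposited log2 intensities of probe sets. The submitters' processing notes name Affymetrix Expression Console 1.1 for them, and background correction, summarization and normalization are not given in the sources used here. The log2 scale was inferred, since the values span 2.859 to 14.3. Array medians of the 9 arrays lay between 6.502 and 6.564. Of 35556 probe sets, 21789 had 1 gene symbol, 1621 several and 12146 were not named here, and 21698 matched a gene ID of the RefSeq table. The brightest probe set was kept for the 999 genes with several, giving 19938 genes, and dim genes stayed in. Of 600 genes on 25 lists, 549 were measured.

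Comparisons used limma 3.58.1 in R 4.3.3 (lmFit, eBayes with trend=TRUE), two-sided, and a gene was called where its p, adjusted by Benjamini and Hochberg over all genes, was under 0.05. The 5 comparisons were BMS641 against EtOH over all times, late (24 to 72 h) and early (2 and 6 h), the slope on log2 hours, and BMS641 against BMS961 with time as a block. Single times used a mean per time. The times of an agent served as its repeats, with 4 to 7 residual degrees of freedom, so the spread holds any course over time, and the number of arrays limits the precision. The fits were tested on simulated data.

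Named genes were the 12 largest called rises and falls over all times without overlap between groups (falls filled to 8 with uncalled genes), the 5 largest each way late, early and against BMS961, the 3 largest each way by slope and at each single time, the 6 receptors, called or strongest members of a list, and Greb1l, Gfra1, Nr0b1 and Plk3. Predicted transcripts, olfactory, vomeronasal and taste receptor genes (such as Olfr566, called over all times) and small RNAs were passed over. The genes, lists, tests and alternatives were chosen with earlier results of these data known. Alternatives were leaving out the 33.3% dimmest genes (13292 stayed), quantile normalization applied again, averaging the probe sets of each gene, robust moderation, a spread taken from EtOH only, adding arrays of other agents, and leaving out each array.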

Additional observations from a re-analysis of the deposited data

Results flagged for a closer look

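In 86 checks of 1 group and gene (43 genes, each in the 5 BMS641 and the 4 EtOH arrays), 9 had 1 array far from the others, judged by its gap to the nearest array over the group's whole range. Chance gives about 1 in 20 such groups where the arrays are like repeats. The BMS641 arrays are 5 different times, and most of the genes were chosen by these values, so that rate is only a rough guide. In the BMS641 group the 2 h array stood apart for Nr0b1 (gap over range 0.732), Zmym3 (0.838), Abcb1a (0.786) and Rxrb (0.787). It was low for Nr0b1, Zmym3 and Abcb1a and high for Rxrb. In the EtOH group, array 4 was low for Zmym3 (0.942), Abcb1a (0.939) and Rarg (0.878), and array 2 was low for Ccl17 (0.955) and Cx3cl1 (0.873).

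For 9 of the 43 genes the late arrays differed from the early ones within BMS641 by limma at an adjusted p under 0.05. Many of the 43 were chosen by their late, early or slope values on these arrays. The choice itself favours such a difference, so the 9 are a description and no support. Over all 19938 genes 45 did. Gfra1 differed by 1.27, Greb1l by 1.26, Meis2 by 0.88, Porcn by 0.77, Actn3 by 0.53 and Id2 by 0.36 on the log2 scale, all higher late. Enpp4 differed by −0.69, Grik3 by −0.61 and Gca by −0.38, all lower late.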

How the results depend on the processing

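Of 1217 alternatives for 78 single-gene results, 936 kept direction and side of the threshold, 266 lost the call, 15 gained it and 0 reversed. Leaving out 1 array gave 10 to 89 calls over all times (51 with all arrays), 60 to 143 late (128), 2 to 24 early (10), 39 to 129 for the slope (113), 10 to 210 against BMS961 (29) and 12 to 16 for single times (15). With a spread taken from EtOH only, 93 genes were called over all times and 28 early. With the BMS961 arrays added, the counts were 22 and 4. With all 24 arrays in the fit, limma called 0 genes over all times, late and early (675, 625 and 468 at an unadjusted p under 0.05). That fit also holds the ATRA and BMS753 arrays in its spread. Another quantile normalization gave 16 early calls. Groups without overlap numbered 605 over all times. Without the time block, 2 genes differed from BMS961 (H1f2 and Dhrs3), and without the fold threshold 185 calls were made at single times. For single times, the normalization, probe set, moderation and left-out-array alternatives were chosen after seeing the data. No paired analysis was possible because the EtOH arrays carry no time and each BMS641 time has a single array, so the groups share fewer than 2 replicate numbers.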
